A study of Mus musculus with 6 samples.

Results

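The 9 genes described here are 6 transcripts known as targets of the coactivators YAP and TAZ (Ccn1, Ccn2, Ankrd1, Amotl2, Ajuba and Lats2), the genes of both coactivators themselves (Yap1 and Wwtr1, which encodes TAZ) and Tead1, the gene of one of their DNA-binding partners. They were picked by name from the 37991 gene IDs of a count table of mouse primordial germ cell-like cells (PGCLCs), because Ccn1 stood higher in the Ezh2 KO libraries, and all 9 were found there. The values that led to the choice are those of the Ezh2 KO against Ctrl contrast, so the differences of the 9 genes in that contrast are given as descriptions and carry no test of their own. PGCLCs stand in for the earliest germ cells of the embryo and are obtained in a dish from pluripotent cells that first pass through an epiblast-like stage.

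The 3 Ezh2 KO libraries came from cells labelled Ezh2-/-, CreERT2 that were given 4-hydroxytamoxifen in ethanol when aggregation began. The 3 Ctrl libraries came from cells labelled Ezh2f/f, CreERT2 that were given ethanol alone. Both groups share the C57BL/6 background, the floxed Ezh2 line with its tamoxifen-activated Cre, and aggregation with the factors BMP2, SCF, EGF and LIF, and both were taken on day 4. The loss of Ezh2 and exposure to 4-hydroxytamoxifen cannot be told apart in this design. The sources used here do not give the driver of the Cre, the number of clones or the sorting gate, and no label says that the replicates are separate inductions, so the errors below may be partly technical.

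In the Hippo pathway the kinases MST1 and MST2 switch on LATS1 and LATS2, which phosphorylate YAP and TAZ and keep them out of the nucleus. Unphosphorylated YAP and TAZ enter the nucleus, bind TEAD factors and switch on genes such as Ccn1 and Ccn2, whose secreted matricellular proteins act through integrins. Several targets feed back: Amotl2 and Lats2 restrain YAP, while Ajuba restrains LATS kinases. In early mouse embryos the pathway is best known for dividing trophectoderm from inner cell mass. YAP and TAZ are controlled largely at the protein level, which transcript counts do not measure.

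The promoters are shown because TEAD factors bind the letters GGAATG, which read CATTCC on the other strand. RefSeq windows on GRCm38.p6, from 250 bases before to 50 bases after the annotated start, were found for 7 of the 9 genes. Ccn2 and Tead1 were not among them. The Ccn1 window (chr3:145649936-145650235, minus strand) reads as follows, with the TEAD letters in capitals.
Ccn1: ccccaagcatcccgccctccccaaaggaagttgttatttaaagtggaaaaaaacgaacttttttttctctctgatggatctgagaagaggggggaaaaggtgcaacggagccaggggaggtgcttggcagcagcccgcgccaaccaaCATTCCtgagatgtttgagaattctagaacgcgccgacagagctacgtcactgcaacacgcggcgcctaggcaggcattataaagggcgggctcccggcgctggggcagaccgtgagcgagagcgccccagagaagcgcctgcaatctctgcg

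The match in Ccn1 begins 103 bases before the start. The other 6 genes with a window also held the letters, and the stretches below give each match in capitals with 20 bases on either side, in the direction of the gene. They lie at chr19:36120029-36120074 and chr19:36119942-36119987 (Ankrd1, minus strand), chr9:102717719-102717764 (Amotl2, plus strand), chr14:54577800-54577867 (Ajuba, minus strand), chr14:57746094-57746139 (Lats2, minus strand), chr9:8004712-8004757 (Yap1, minus strand) and chr3:57576021-57576066 (Wwtr1, minus strand).
Ankrd1, upstream match: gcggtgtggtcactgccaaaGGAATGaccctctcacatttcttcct
Ankrd1, downstream match: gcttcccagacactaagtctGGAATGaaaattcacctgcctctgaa
Amotl2: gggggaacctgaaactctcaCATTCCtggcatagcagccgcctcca
Ajuba: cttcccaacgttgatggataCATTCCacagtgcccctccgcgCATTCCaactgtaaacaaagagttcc
Lats2: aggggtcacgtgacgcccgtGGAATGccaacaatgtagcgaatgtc
Yap1: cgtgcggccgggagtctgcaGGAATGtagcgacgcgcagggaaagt
Wwtr1: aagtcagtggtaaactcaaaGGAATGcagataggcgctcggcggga

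Ankrd1 and Ajuba each held the letters at 2 places, and the 7 genes held 9 in all. Of all RefSeq genes with such a window, 16.6% hold GGAATG on either strand in at least 1 window, or 14.7% of the 32851 windows. Neither the AP-1 letters TGANTCA (7.81% of windows) nor the CArG box of serum response factor (1.63%) occurred in the windows of the 7 genes. These matches are descriptions of letters near a start, and 5 of the 7 genes were picked as known targets.

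Depth ran from 27072150 to 38643944 counts in the Ezh2 KO libraries and from 27358959 to 49382146 in the Ctrl libraries. Levels below are CPM, counts relative to the scaled total of each library, and CPM per kilobase of exon where genes are set against each other. Transcripts of Ezh2 were at 40.8, 67.1 and 70.0 CPM in the Ezh2 KO libraries, against 91.8, 78.1 and 95.3 CPM in the Ctrl libraries, so every Ezh2 KO library lay below every Ctrl library. The log2 fold change of Ezh2 was -0.58 ± 0.23 SE, and Ezh2 KO over Ctrl was 0.444, 0.859 and 0.735 by replicate number. Counts over the whole gene can hold reads of exons outside the deletion. They do not give the share of cells with the deletion, and the source of the remaining counts was not tested. The germ cell regulators that define the labelled cell type were present in both groups: Tfap2c at 227 ± 73.0 and 300.2 ± 20.1 CPM, Prdm14 at 56.4 ± 13.1 and 55.5 ± 9.16 CPM and Prdm1 at 4.30 ± 1.31 and 5.96 ± 1.23 CPM in Ezh2 KO and Ctrl (SD, n = 3 each). On the first principal component, which held 55.5% of the variance, Ezh2 KO replicate 2 (78.0) and Ctrl replicate 1 (-61.4) stood at the ends.

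With edgeR's quasi-likelihood test, 0 of 16420 genes were called (0%), with a smallest Benjamini-Hochberg adjusted p of 0.976 and 459 genes at an unadjusted p under 0.05. None of the 9 genes was therefore called. Limma-voom also called 0 genes (466 at an unadjusted p under 0.05). DESeq2 called 5 genes (0.02%) and, with the replicate number as a block, 50 genes (0.281%), and 0 of the 9 genes were among either. The 3 Ezh2 KO libraries lay all above the 3 Ctrl libraries in 4.07% of genes and all below in 4.03%, 8.09% in all, and 51.3% of genes had a log2 fold change above 0.

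**Figure D1:**
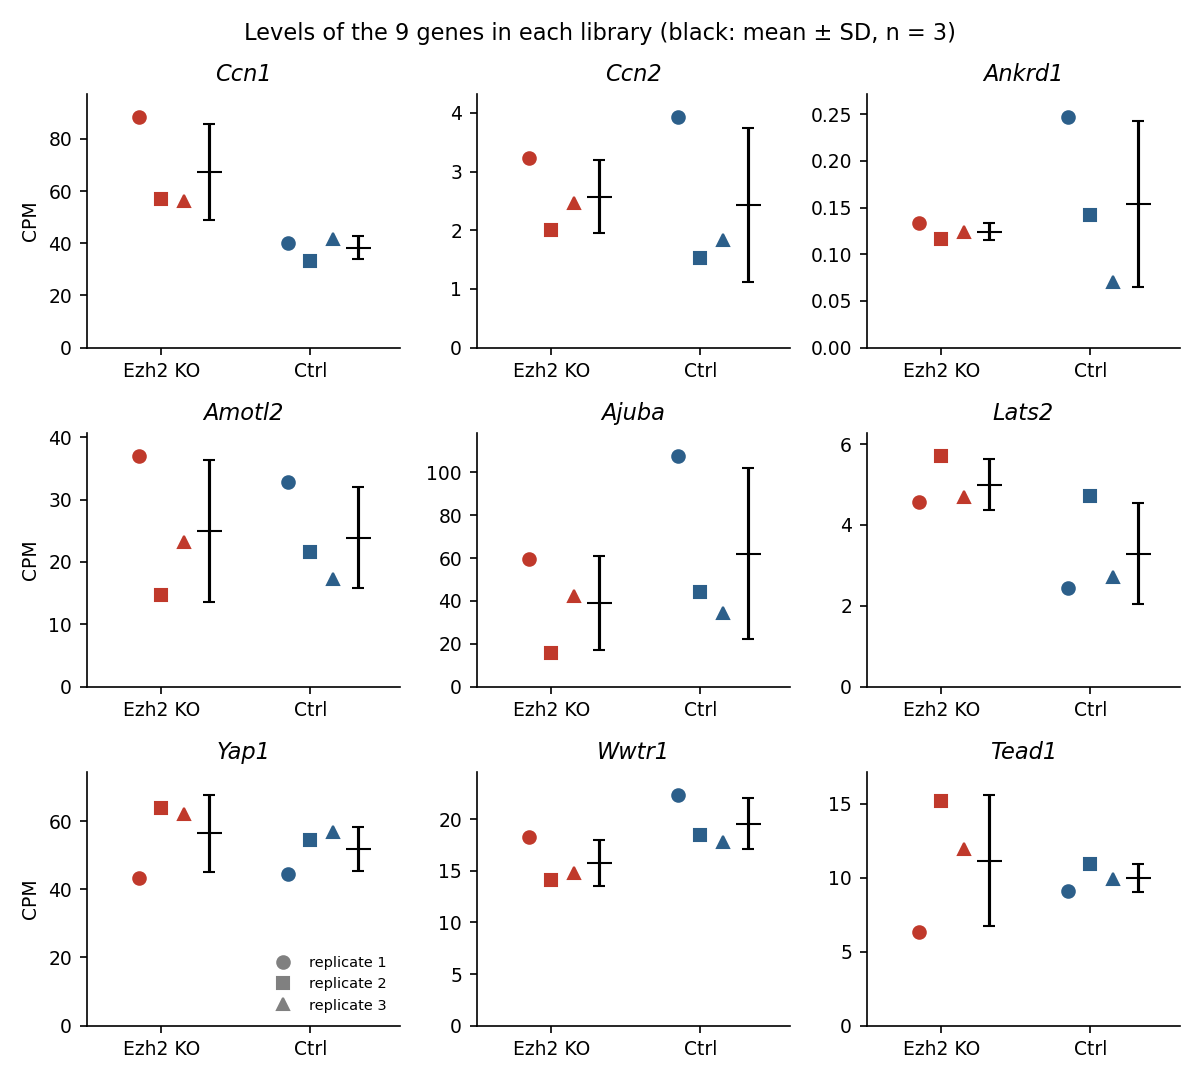
Levels of the 9 genes in CPM (linear axes from 0, each with its own scale) in the 3 Ezh2 KO libraries (red) and the 3 Ctrl libraries (blue), with the mean ± SD in black. For Ccn1 the Ezh2 KO libraries sit between 56.1 and 88.5 CPM, all above the Ctrl libraries, while the groups overlap for the other 8 genes.

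Ccn1, which encodes a secreted integrin-binding protein, had the highest mean level per kilobase of the 9 genes in both groups. It stood at 88.5, 57.1 and 56.1 CPM in Ezh2 KO replicates 1 to 3, against 40.0, 33.4 and 41.5 CPM in Ctrl replicates 1 to 3. The Ezh2 KO libraries lay above all Ctrl libraries, and Ezh2 KO replicate 1 stood well above the other two of its group. The means were 67.2 ± 18.4 CPM in Ezh2 KO and 38.3 ± 4.34 CPM in Ctrl (SD, n = 3 each), a log2 fold change of 0.81 ± 0.23 SE with a 95% interval of 0.29 to 1.33, which is not adjusted for the choice of the gene. By replicate number, Ezh2 KO over Ctrl was 2.21, 1.71 and 1.35. Ccn1 had a log2 fold change of 0.56 once Ezh2 KO replicate 1 was left out. Of all tested genes, 95.9% had a lower log2 fold change than Ccn1. Since Ccn1 was picked for its rise in this contrast, nothing is read from that rank. Because these are bulk samples, more cells with Ccn1 transcripts and more transcripts per cell cannot be told apart.

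Ccn2, the close relative of Ccn1 and an equally classic YAP target, showed no separation of the groups. It stood at 3.24, 2.01 and 2.47 CPM in Ezh2 KO, against 3.94, 1.53 and 1.84 CPM in Ctrl, and the highest and the lowest of the 6 libraries were both Ctrl. Its log2 fold change was 0.07 ± 0.43 SE, with a 95% interval of -0.91 to 1.05 that spans the value of Ccn1. Ccn2 had 43 to 191 counts in a library, and a difference between both genes was not tested. Per kilobase, Ccn1 made up 97.0% to 97.6% of the sum of both genes in Ezh2 KO and 93.5% to 97.0% in Ctrl. The other CCN family genes, Ccn3 to Ccn6, reached at most 0.618 CPM in any library and were not tested.

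Ankrd1, a nuclear ankyrin-repeat protein of muscle and a standard YAP reporter transcript, was close to undetected. It had 5, 3 and 5 counts in Ezh2 KO and 12, 4 and 2 counts in Ctrl, which is 0.116 to 0.134 CPM and 0.0708 to 0.247 CPM, and it was left out of the test by the filter on low counts. At this depth no difference in Ankrd1 was detectable.

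Amotl2, an angiomotin that tethers YAP at junctions, stood at 37.1, 14.6 and 23.2 CPM in Ezh2 KO and at 32.9, 21.6 and 17.3 CPM in Ctrl. The groups overlapped throughout, with a log2 fold change of 0.06 ± 0.38 SE (95% interval -0.80 to 0.93).

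Ajuba, a LIM protein that binds and restrains LATS kinases, varied most of all members. It stood at 59.5, 15.8 and 42.2 CPM in Ezh2 KO, against 108, 44.4 and 34.2 CPM in Ctrl, a 6.85-fold span from Ezh2 KO replicate 2 to Ctrl replicate 1. Its log2 fold change was -0.67 ± 0.55 SE (95% interval -1.93 to 0.59), and it was -0.003 without Ctrl replicate 1 and 0.37 without both Ctrl replicate 1 and Ezh2 KO replicate 2. Its SD within groups on the log2 scale, 0.933, was larger than in 97.6% of the 2026 genes within 0.5 log2 CPM of its mean level, whose median was 0.261. Ajuba had the highest transcript GC content of the 9 genes, 58.3%, and once GC content was corrected library by library its log2 fold change was -0.46.

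Lats2, the kinase that both restrains YAP and is its target, stood at 4.57, 5.71 and 4.69 CPM in Ezh2 KO, against 2.43, 4.72 and 2.72 CPM in Ctrl. Ezh2 KO exceeded Ctrl at each replicate number, by 1.88, 1.21 and 1.72 times, but the groups overlapped because Ctrl replicate 2 lay within the Ezh2 KO libraries. The log2 fold change of Lats2 was 0.60 ± 0.33 SE (95% interval -0.16 to 1.37). Its paralog Lats1 stood at 3.53, 7.26 and 7.21 CPM in Ezh2 KO and at 3.75, 5.78 and 6.01 CPM in Ctrl. Lats2 held 57.6%, 45.2% and 40.5% of the sum of both kinases per kilobase in Ezh2 KO, against 40.4%, 46.1% and 32.2% in Ctrl.

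The 3 genes of the transcription complex itself overlapped between groups. Yap1 stood at 43.4, 63.9 and 62.0 CPM in Ezh2 KO and at 44.5, 54.3 and 56.8 CPM in Ctrl (log2 fold change 0.12 ± 0.21 SE, 95% interval -0.35 to 0.60). Replicate 1 was the lowest of its group on both sides, and the groups overlapped.

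Wwtr1 stood at 18.3, 14.1 and 14.8 CPM in Ezh2 KO, against 22.4, 18.5 and 17.8 CPM in Ctrl. It was lower in Ezh2 KO at each replicate number (0.818, 0.762 and 0.831 of Ctrl), while Ezh2 KO replicate 1 lay among the Ctrl libraries. The log2 fold change of Wwtr1 was -0.31 ± 0.22 SE (95% interval -0.81 to 0.19).

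Yap1 was the more abundant coactivator per kilobase in every library, with 55.1%, 70.1% and 68.4% of the sum of Yap1 and Wwtr1 in Ezh2 KO and 50.7%, 60.3% and 62.2% in Ctrl. At each replicate number the share was larger in Ezh2 KO, and the ranges overlapped.

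Tead1 stood at 6.36, 15.2 and 12.0 CPM in Ezh2 KO, a wide spread, and at 9.09, 10.96 and 9.91 CPM in Ctrl (log2 fold change 0.16 ± 0.33 SE, 95% interval -0.60 to 0.92). Per kilobase it was a minor member of its own family. Its place below Tead4 rests on the approximate exon lengths, 13.57 kb for Tead1 and 3.598 kb for Tead4. In CPM the means of Tead1 and Tead4 were 11.2 and 8.79 in Ezh2 KO and 9.99 and 9.68 in Ctrl. Tead2, a TEAD factor of early embryos, held 72.5% to 81.6% of the summed TEAD level per kilobase in Ezh2 KO and 78.0% to 81.4% in Ctrl, and Tead4, known for its part in trophectoderm, held 11.6% to 16.2% and 14.2% to 15.0%. Tead1 held 1.91% to 11.6% in Ezh2 KO and 2.64% to 5.81% in Ctrl, and Tead3 at most 1.24% and 1.34%. Tead2 itself stood at 95.2, 33.4 and 62.6 CPM in Ezh2 KO and at 98.7, 64.6 and 46.9 CPM in Ctrl (log2 fold change -0.14 ± 0.40 SE), and Tead4 at 14.3, 5.33 and 6.69 CPM and at 13.7, 8.62 and 6.72 CPM (-0.14 ± 0.43 SE).

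**Figure D2:**
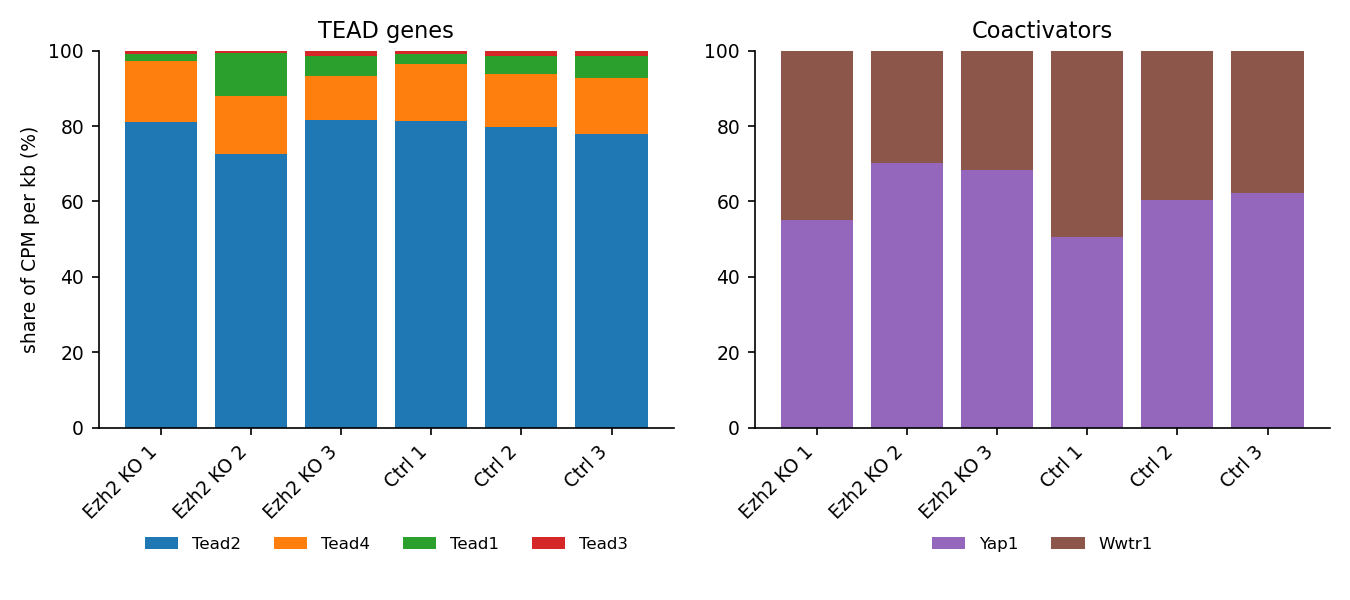
Shares in percent of CPM per kilobase in each library, Ezh2 KO left of Ctrl, for the TEAD genes (left, of Tead1 to Tead4) and for the coactivators (right, of Yap1 and Wwtr1). Tead2 makes up at least 72.5% of its family in every library, and the Yap1 share runs from 50.7% to 70.1%.

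Ordered by CPM per kilobase, the 9 genes ran in Ezh2 KO from Ccn1 (33.3 ± 9.14) through Ajuba (10.7 ± 6.05), Yap1 (6.10 ± 1.22), Amotl2 (3.97 ± 1.8), Wwtr1 (3.29 ± 0.470), Ccn2 (0.899 ± 0.217), Tead1 (0.823 ± 0.328) and Lats2 (0.716 ± 0.0899) to Ankrd1 (0.0431 ± 0.00311; SD, n = 3). In Ctrl, Ccn1 (19.0 ± 2.15) and Ajuba (17.0 ± 10.9) overlapped in their libraries, and Wwtr1 (4.09 ± 0.516) stood ahead of Amotl2 (3.80 ± 1.28) with overlap. In both groups Ccn2 overlapped with Tead1 and Tead1 with Lats2, while Ccn2 did not overlap with the gene above it. The libraries of Ccn1 did not overlap with those of Ajuba in Ezh2 KO, and Ankrd1 was the lowest in both groups, without overlap with Lats2.

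Of the 8 tested members, 1 lay wholly above Ctrl in Ezh2 KO (Ccn1), against 4.07% of all tested genes, and 0 lay wholly below, against 4.03% (8.09% of genes in either direction). Ccn1 and Lats2 were higher in Ezh2 KO at all 3 replicate numbers, as were 17.9% of tested genes, and Wwtr1 was lower at all 3, as were 14.8%. Their median log2 fold change was 0.10, against 0.01 over all tested genes. The rule picked the set for Ccn1, so nothing is read from the place of Ccn1 in these counts.

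**Figure D3:**
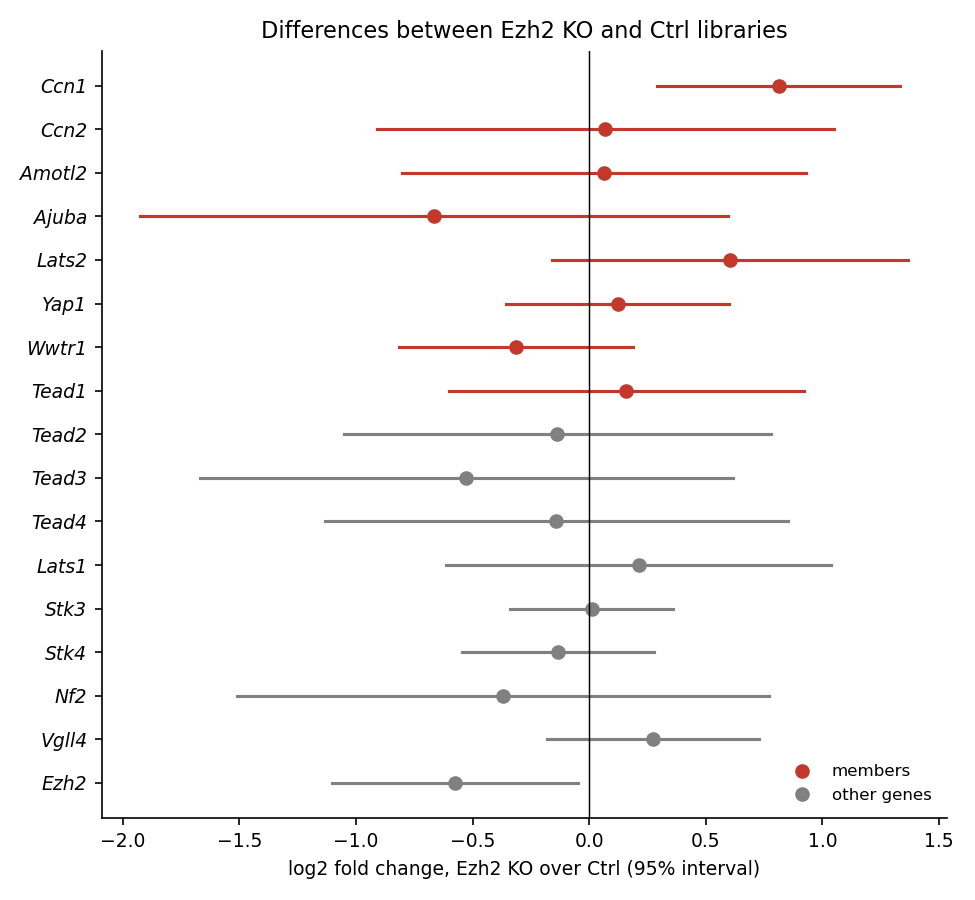
Log2 fold change of Ezh2 KO over Ctrl with its unadjusted 95% interval for the 8 tested members (red) and for further genes of the pathway and Ezh2 (grey). The intervals come from the fit without the replicate block. Among the red bars only that of Ccn1 (0.29 to 1.33) lies wholly above 0, and none of the genes passed the test over all genes.

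Most of the 9 genes had the same extreme replicate number in both groups. Ccn2, Ankrd1, Amotl2, Ajuba and Wwtr1 were each highest in the replicate 1 library of both groups, and Lats2, Yap1 and Tead1 were each lowest there. Ccn1 was highest in replicate 1 in Ezh2 KO but not in Ctrl. Of all tested genes, 25.9% were highest and 22.9% lowest in replicate 1 of both groups. The replicate 1 libraries also stood lowest of their group on the first principal component, at -35.5 in Ezh2 KO and -61.4 in Ctrl, against 13.3 to 78.0 and -1.20 to 6.78 for the others, and the part of this in the levels above was not tested. Transcript GC content was 58.3% in Ajuba and 56.7% in Amotl2, against 45.2% in Yap1 and 46.5% in Tead1. It was 43.9% in Wwtr1, 47.9% in Ankrd1 and 49.2% in Ccn2, which were highest in replicate 1, and 52.2% in Lats2, which was lowest there. The part of GC content in the place of replicate 1 was not tested.

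Likeness was measured as the root-mean-square difference between the log2 CPM values of a pair of genes over the 6 libraries, each centred on its own mean. Among the 12235 tested genes whose mean log2 CPM was 1 or more, the nearest to Ccn1 were Arpin, an inhibitor of the Arp2/3 complex (0.119), the carbonyl reductase gene Cbr3 (0.121), the tubulin-binding protein gene Tppp3 (0.141), Arhgap8 (0.146) and Efhc2 (0.163). None of these 5 was on a list used here. Arpin stood at 7.09, 5.29 and 5.63 CPM in Ezh2 KO and at 3.53, 3.05 and 4.25 CPM in Ctrl. These 5 genes were picked for their likeness to Ccn1 over the same 6 libraries. Their higher values in Ezh2 KO follow from that choice, and a shared response was not tested. The nearest member was Lats2, at 0.483, and 30.8% of the 12235 genes were nearer to Ccn1 than Lats2. The measure also depends on how much each gene varies, and a gene that hardly varies can lie near. The place of Lats2 therefore does not show that it varied with Ccn1. Yap1 and Tead1 were the closest pair of members (0.213), followed by Ccn2 and Amotl2 (0.305).

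**Figure D4:**
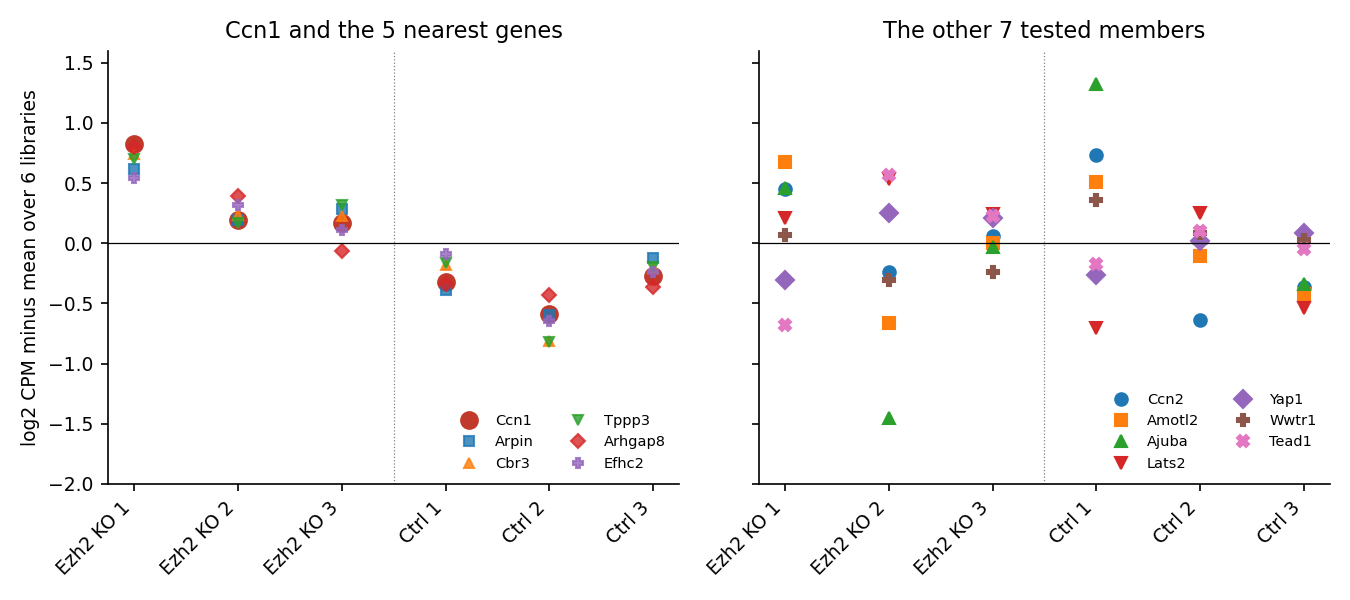
Log2 CPM minus the gene's mean over the 6 libraries, for Ccn1 and the 5 genes nearest to it (left) and for the other 7 tested members (right), Ezh2 KO left of the dotted line and Ctrl right of it. On the left the points of Ezh2 KO replicate 1 are the highest, which follows from choosing genes near Ccn1. On the right Ajuba spans the widest range, with its ends in Ezh2 KO replicate 2 and Ctrl replicate 1.

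The wider set of YAP and TAZ targets had differences of both signs. Of a 22-gene target signature known from human tumours, which includes 5 of the members, 19 genes were tested, 0 were called, 9 had a positive and 10 a negative log2 fold change, and the median was -0.15. Ccn1, which the rule picked, and Asap1, an ARF GTPase-activating protein gene, lay wholly above Ctrl in Ezh2 KO. Crim1, which encodes a membrane protein that binds BMPs, lay wholly below. Here and in the lists that follow, such counts stand beside 4.07% of all tested genes wholly above and 4.03% wholly below.
Asap1 stood at 22.8, 24.6 and 29.2 CPM in Ezh2 KO and at 20.2, 19.2 and 22.2 CPM in Ctrl (log2 fold change 0.32 ± 0.20 SE). Crim1 stood at 0.802, 0.579 and 1.28 CPM, against 1.30, 2.16 and 2.02 CPM (-1.02 ± 0.41 SE). Gadd45a, a growth arrest gene, was the most abundant per kilobase of the signature over all 6 libraries. It led in Ctrl (32.4 CPM per kilobase, against 19.0 for Ccn1), while Ccn1 led in Ezh2 KO (33.3, against 20.7 for Gadd45a). Gadd45a stood at 35.9, 24.2 and 49.3 CPM in Ezh2 KO and at 75.8, 38.6 and 57.0 CPM in Ctrl (-0.65 ± 0.32 SE), with overlap.

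Upstream, the Hippo kinases and adaptors were expressed in both groups with a median log2 fold change of 0.02 over 20 tested of 22 genes (11 positive, 9 negative, 0 called). Lats2 had the largest positive value of this list, and Mink1, a MAP4K-family kinase gene, the most negative (-0.58 ± 0.53 SE), at 18.7, 4.87 and 11.4 CPM in Ezh2 KO and 27.1, 16.0 and 9.41 CPM in Ctrl. The casein kinase gene Csnk1d, whose product marks YAP for degradation, was the most abundant per kilobase over all 6 libraries, at 13.1 ± 4.03 CPM per kilobase in Ezh2 KO and 15.7 ± 4.23 in Ctrl. In Ezh2 KO alone the MST2 gene Stk3 stood above it (14.3 ± 1.67, against 14.2 ± 0.238 in Ctrl). Of this list 1 gene, the related kinase gene Csnk1e, lay wholly above Ctrl in Ezh2 KO (log2 fold change 0.11). Of all tested genes, 4.07% did.
The atypical cadherin genes Fat4 and Dchs1 were near 0 and not tested.

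Genes of proteins that bind YAP at junctions, set apical polarity or, like Ajuba, bind LATS kinases numbered 16. All were tested, with 0 called, 7 positive, 9 negative and a median of -0.02. Tjp1, the tight junction scaffold gene, had the largest value (0.40 ± 0.27 SE) and Ajuba the most negative, and Ctnna1, which encodes alpha-catenin, the highest level per kilobase (135 in Ezh2 KO and 125 in Ctrl). Of the 10 TEAD, coactivator and Vgll genes, 9 were tested and 0 called, with a median of -0.14. Vgll4, whose product competes with YAP for TEADs, lay wholly above Ctrl in Ezh2 KO, as did 4.07% of all tested genes. It stood at 17.3, 20.3 and 19.7 CPM in Ezh2 KO against 14.8, 16.1 and 16.5 CPM in Ctrl (0.27 ± 0.20 SE). Tead3 had the most negative value (-0.53 ± 0.50 SE), and Vgll2 had no counts in any library.

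Receptors of CCN proteins were expressed in both groups: 10 of 10 were tested and 0 called. Of these, 8 lay above 0 in log2 fold change (median 0.11), as did 51.3% of all tested genes. The heparan sulfate proteoglycan gene Sdc4 had the highest level per kilobase (76.5 in Ezh2 KO and 65.4 in Ctrl). The integrin gene Itgam had the largest value (0.67 ± 0.58 SE), which rested on Ezh2 KO replicate 2 at 4.29 CPM, against 0.963 to 1.77 CPM in the other 5 libraries. Lrp1 had the most negative value (-0.24 ± 0.54 SE).

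Ccn1 is also known as an immediate-early gene and as a target of serum response factor (SRF). Of 24 immediate-early genes 21 were tested and 0 called, with 4 positive and 17 negative log2 fold changes and a median of -0.21. Ier2, the one with the highest level per kilobase, lay wholly below Ctrl in Ezh2 KO (364, 177 and 369 CPM against 522, 391 and 476 CPM, -0.61 ± 0.27 SE), as did the phosphatase gene Dusp1 (-0.21 ± 0.13 SE). Btg2, an antiproliferative gene, lay wholly above (0.38 ± 0.19 SE), Myc had the largest value (0.40 ± 0.22 SE) and Egr2 the most negative (-0.72 ± 0.52 SE). Of all tested genes, 4.07% lay wholly above and 4.03% wholly below, and 51.3% had a log2 fold change above 0. Of 18 SRF and actin cytoskeleton genes, all tested, 0 were called, 5 were positive and 13 negative, and the median was -0.08, from Acta2 (-0.55 ± 0.41 SE) to Myl9 (0.48 ± 0.33 SE). Actb, with the highest level per kilobase of these, had a log2 fold change of -0.16 ± 0.18 SE. The immediate-early genes summed to 1481.5, 964.6 and 1376 CPM in Ezh2 KO and 1649, 1361 and 1557 CPM in Ctrl. The SRF and actin genes summed to 4073, 2743 and 3396 CPM and to 4336, 3539 and 3162 CPM. Ezh2 KO replicate 2 had the lowest sum of both lists. Its part in the medians, and the bearing of either list on Ccn1, was not tested.

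**Figure D5:**
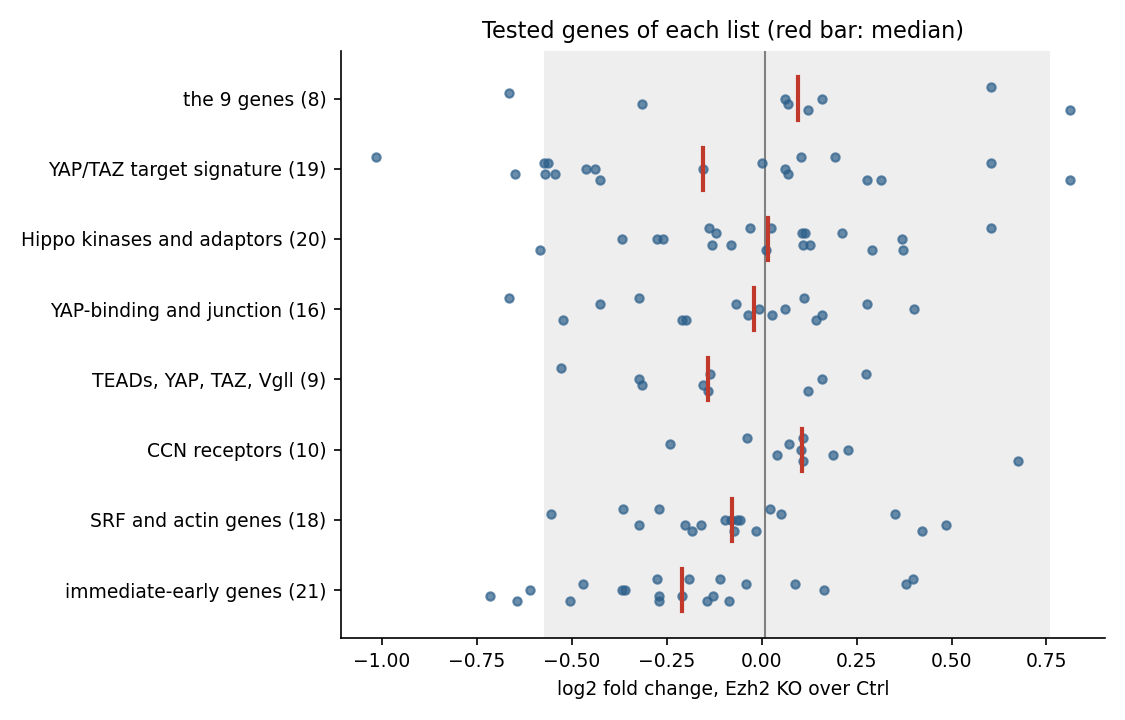
Log2 fold change of Ezh2 KO over Ctrl for each tested gene of 8 lists (points, with the number tested in brackets), with the list's median as a red bar. The grey band holds the middle 90% of all tested genes (-0.57 to 0.76) and the grey line their median, and the medians of the lists lie between -0.21 and 0.11.

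Other cells of an aggregate can carry CCN transcripts, and the summed levels of their markers overlapped between groups. The 10 fibroblast markers summed to 3.71 to 7.59 CPM in Ezh2 KO and 7.39 to 11.4 CPM in Ctrl, and the defining transcripts Dcn and Lum reached at most 0.0494 and 0.116 CPM in Ezh2 KO and 0.248 and 0.0825 CPM in Ctrl. Col1a1, the most abundant fibroblast marker per kilobase, stood at 3.10, 1.00 and 2.40 CPM in Ezh2 KO and at 5.63, 3.55 and 2.72 CPM in Ctrl. Its log2 fold change was -0.87 ± 0.47 SE. Pdgfra and Pdgfrb reached at most 1.35 and 2.12 CPM in any library. Of the fibroblast markers 6 were tested, 1 with a positive log2 fold change, and the median was -0.62. Col1a2 and Fbn1 lay wholly below Ctrl in Ezh2 KO, as did 4.03% of all tested genes. The 8 endoderm markers summed to 3.20 to 4.55 CPM and 3.55 to 5.50 CPM, with Foxa2 and Ttr at 0 in every library but Ctrl replicate 1, which had 2 counts of each. Of the endoderm markers 4 were tested, 0 with a positive log2 fold change, and the median was -0.96. They were Sox17 (-1.63 ± 0.74 SE), Gata4 (-1.04 ± 0.59 SE), Gata6 (-0.88 ± 0.44 SE) and Sox7 (-0.01 ± 0.34 SE). Sox17, Gata4 and Gata6 reached at most 0.639, 1.05 and 1.56 CPM in any library. Sox17 lay wholly below Ctrl in Ezh2 KO, and the untested Cubn wholly above (0.241 to 0.463 CPM against 0 to 0.227 CPM). Afp, also untested, stood at 0.134 to 0.232 CPM and 0 to 0.177 CPM. The 10 trophoblast markers summed to 242 to 400 CPM and 172 to 485 CPM, mostly the keratin genes Krt8 and Krt18, with Cdx2 at 0.270 to 0.508 CPM and 0.639 to 0.991 CPM and Elf5 at 0.766 to 1.42 CPM and 0.371 to 0.710 CPM. Elf5 and Eomes lay wholly above Ctrl in Ezh2 KO and Cdx2 wholly below, as did 4.07% and 4.03% of all tested genes. The 8 endothelial markers summed to 127 to 210 CPM and 127 to 204 CPM, mostly Pecam1, which germ cells also express. Of the other endothelial markers, Esam stood at 9.09, 3.01 and 6.64 CPM in Ezh2 KO and at 6.04, 2.48 and 4.71 CPM in Ctrl, and Tek at 6.15, 4.75 and 6.15 CPM and at 2.43, 3.62 and 5.77 CPM, both higher in Ezh2 KO at all 3 replicate numbers with overlap. Of all tested genes, 17.9% were higher at all 3 replicate numbers. Cdh5 reached 0.865 CPM in Ezh2 KO and 0.531 CPM in Ctrl. Kdr stood at 0.214, 0.425 and 0.371 CPM in Ezh2 KO and at 0.227, 0.461 and 0.460 CPM in Ctrl. It was lower at all 3 numbers, as were 14.8% of tested genes. Cldn5 had a log2 fold change of -0.25 ± 0.38 SE. Of the endothelial markers 6 were tested, 3 with a positive and 3 with a negative log2 fold change. The 10 germ cell markers summed to 1325 to 1741 CPM in Ezh2 KO and 1652 to 1845 CPM in Ctrl. All 10 were tested, 2 with a positive and 8 with a negative log2 fold change, and the median was -0.29. Nanog was the most abundant of them per kilobase. The part of any of these cells in the level of Ccn1 was not tested.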

How the data were processed

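The authors deposited 1 table of raw counts for the 6 libraries, by Ensembl gene. Per the submitters' processing notes, the tools were featureCounts, TopHat2 2.0.11, Trimmomatic 0.33 and CASAVA 1.8.4, and the builds NCBIM37 and mm9. The sources used here give neither settings nor the use of strand, so overlapping and antisense genes cannot be separated. By gene ID, GENCODE M21 gave symbols, exon lengths and GC content, and RefSeq gave promoters (GRCm38.p6). These belong to another build than the counts, so lengths are approximate.

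Genes kept by filterByExpr (minimum count 10) were scaled by TMM, and edgeR 4.0.16 fitted its quasi-likelihood model (R 4.3.3, robust, group only, two-sided, Benjamini-Hochberg, threshold 0.05). Standard errors derive from the F statistic. Log2 CPM used a prior count of 2. Scripts were tested on simulated data. Limma 3.58.1 and DESeq2 1.42.0 were alternatives.

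Deviations from the group means correlated at 0.583, 0.368 and 0.192 between same-numbered libraries. The replicate numbers, which the labels give, were therefore used as a block in alternative fits. The main fit did not use them, so its standard errors and intervals ignore any pairing. Its biological coefficient of variation was 30.6%, against 22.7% with the block in edgeR. Of the 6 other pairs, Ezh2 KO 2 with Ctrl 3 reached 0.297, above the matched pair 3, and the rest were below 0.

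The members and the 14 lists (183 entries, all matched) were chosen with earlier results of these data known. Named were all members, all TEAD and CCN genes, the largest, most negative and most abundant (per kilobase) tested gene of each pathway list, and defining cell markers. Genes singled out because their groups do not overlap were named after their values were seen.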

Additional observations from a re-analysis of the deposited data

How the results depend on the processing

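Leaving out 1 library in turn, DESeq2 size factors, both other filters, limma-voom, an offset for GC content and the replicate block in edgeR (1495 genes at an unadjusted p under 0.05) each left the number of genes called at 0. DESeq2 called 5 genes, and DESeq2 with the replicate block 50. The genes whose groups do not overlap numbered 1329 of 16420, 2100 of 26974 without a filter and 1050 of 13849 with the stricter filter. They numbered 2529 to 4385 when 1 library was left out, since 2 libraries part from 3 more easily. The log2 fold change of Ccn1 was positive in all 16 alternatives (0.56 to 0.95), as was that of Lats2 (0.32 to 0.95), and that of Wwtr1 negative (-0.44 to -0.13). Ajuba ranged from -1.10 to 0.37, Ccn2 from -0.18 to 0.76, Amotl2 from -0.34 to 0.63, Tead1 from -0.18 to 0.44 and Yap1 from -0.07 to 0.28. The upper values of Ajuba and Ccn2, from leaving out Ctrl replicate 1 and Ezh2 KO replicate 2 together, moved by more than the SD between replicates, and the cause was not tested. That removal and the offset for GC content, alone or with the replicate block, were chosen after seeing the data. With the replicate block, edgeR gave Ccn1 0.79 ± 0.20 SE, Lats2 0.66 ± 0.25, Ajuba -0.68 ± 0.34 and Wwtr1 -0.32 ± 0.20. It gave Ccn2 0.16 ± 0.28 SE, Amotl2 0.02 ± 0.24, Yap1 0.11 ± 0.18 and Tead1 0.08 ± 0.26. The smallest Benjamini-Hochberg adjusted p of this edgeR fit was 0.158. The block changed no call among the members. Depth limits Ankrd1 and Ccn3 to Ccn6, which had too few counts to test.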
